A study of Oryza sativa with 4 samples.

Results

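The comparison set 1 array of OsCPK21-RNAi spikelets against 1 array of ZH11 spikelets, both at anther development stage 12, and covers 2 of the 4 arrays of the series. The arrays were chosen by sample title. All 57194 probe sets of the Affymetrix Rice Genome Array that are not controls were used, with or without an annotated gene. ZH11 is Zhonghua 11, a japonica rice cultivar, and the RNAi plants carry an RNA interference construct against OsCPK21 in the same background. Plants of both genotypes were grown untreated in a field. The labels speak of 3 RNAi lines, and the sources used here give neither whether the array held 1 line or a pool nor the promoter and targeted fragment of the construct. RNA came from whole spikelets, so glumes, lodicules, pistil and anthers were read together. The other 2 arrays are the same genotypes at anther stage 9 and served as a second pair that shares no array with the first.

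Calcium-dependent protein kinases carry a kinase domain and calcium-binding hands in 1 protein, so that a calcium signal is turned directly into phosphorylation. Plant pollen relies on calcium signals during its late development and in tube growth. At stage 9 of rice anther development young microspores have left their tetrads and the tapetum, the cell layer that feeds them, is active. At stage 12 the tapetum has degenerated and the pollen grains mature, filling with starch and storing transcripts of wall-loosening proteins and of the actin skeleton for the pollen tube.

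Each value is the deposited signal of a probe set on a linear scale. Signals under 71 were raised to that floor before ratios were taken, and "higher" or "lower" means that RNAi and ZH11 stood 2-fold or more apart, 1 or both arrays being above the floor. Where 1 array lay under the floor the fold is a lower bound. With 1 array per group no spread and no test could be had, and the number of arrays limits every value. Within genes read by several probe sets above the floor on both arrays, the log2 ratios of these probe sets had an SD of 0.318 (4528 probe sets of 2034 genes), which measures disagreement between probes and not between plants. Median signals were 75.3 in RNAi and 83.8 in ZH11, and 51.6% of probe sets in RNAi and 54.3% in ZH11 were above the floor. The 12 probe sets for poly-A spike-in RNAs, added to the RNA before labelling, were all brighter in RNAi, by 1.29 to 1.59 times, while the 9 for hybridisation controls had ratios from 0.917 to 1.01. The ratio of 3-prime to 5-prime signal was 8.53 in RNAi and 10.3 in ZH11 for actin and 3.48 in both for Gapdh. At stage 9 it was 4.20 in RNAi and 3.89 in ZH11 for actin, and 2.499 in RNAi and 1.96 in ZH11 for Gapdh. The part of this gap between the stages in the levels set across them was not tested.

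The targeted gene went with the titles. OsCPK21 (LOC4346187, 1 probe set) had a signal of 17.6 in RNAi and 2719 in ZH11 at stage 12, at least 38.2-fold lower. At stage 9 it had 206 in RNAi and 1940 in ZH11, 9.41-fold lower. Nothing in the sources used here says whether its probes lie in the fragment used for silencing. The genotype field of the labels goes against the titles and names the other genotype on every sample.

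The reporter controls also differed between the genotypes. The array carries 64 reporter controls, probe sets for foreign sequences such as selection markers and reporter genes that are used in transgenic plants. Among them 2 were bright on all 4 arrays, and both were brighter in the arrays titled ZH11. The first had a signal of 1318 in RNAi and 5406 in ZH11 at stage 12, and 380.0 in RNAi and 5523 in ZH11 at stage 9. The second had 2923 in RNAi and 7544 in ZH11 at stage 12, and 841 in RNAi and 10742 in ZH11 at stage 9. A further 2 were above the floor on all 4 arrays, with signals from 86.3 to 105. The rest reached at most 88.8, with medians of 19.99 in RNAi and 22.4 in ZH11 at stage 12. The first bright control is RPTR-Os-A00196-1_s_at and the second is RPTR-Os-K01193-1_at. Beyond such codes the files do not say which sequences the controls read. Whether any is part of the RNAi construct is not known here. All directions here follow the titles, and every one of them would turn if the genotype field were right.

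**Figure D1:**
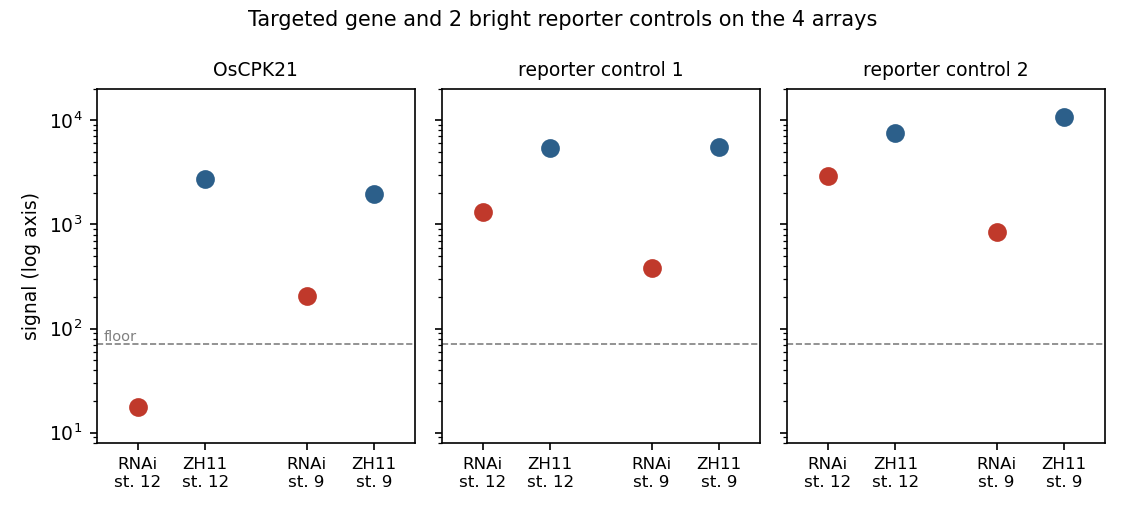
Signal on a log axis of OsCPK21 and of the 2 bright reporter controls in RNAi and ZH11 spikelets at stages 12 and 9, 1 point per array, with the floor of 71 as a dashed line. All 3 were lower in both RNAi arrays than in the ZH11 array of the same stage, and OsCPK21 lay under the floor in RNAi at stage 12.

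Markers of floral organs outside the anther and of green tissue were within 2-fold between the genotypes. The tapetum gene CYP703A3, a hydroxylase of pollen wall synthesis, had signals of 58.3 in RNAi and 44.6 in ZH11, both under the floor, against 7113 in RNAi and 8854 in ZH11 at stage 9. Of the 9 tapetum genes on the array 8 were above the floor, with RAFTIN1 higher and OsC6, a lipid transfer protein, lower (37.8 in RNAi, 162 in ZH11). The 6 genes of floral organs outside the anther were all above the floor and within 2-fold. Lhs1, a MADS-box gene of the lemma and palea, had 9738 in RNAi and 9312 in ZH11, and MADS13, of the ovule, had 1190 in RNAi and 1047 in ZH11. The 5 green tissue genes were within 2-fold as well, with 4107 in RNAi and 4091 in ZH11 for RBCS, the small subunit of Rubisco. They ranged from PSB28, with 374 in RNAi and 573 in ZH11, to PSAG, a photosystem I subunit, with 1861 in RNAi and 996 in ZH11. Under common median, trimmed mean and quantile scaling 1 of the 5 was higher, and after poly-A scaling 1 was lower. Of 5 genes of the meiocyte list on the array 4 were above the floor, with log2 ratios from -0.29 to 0.85. None of these 4 was called in the signals as deposited, and 1 was higher under common median scaling.

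The beta-expansins of the late pollen list were lower in RNAi. EXPB9 and EXPB10, beta-expansins of the group of grass pollen allergens that loosen cell walls, had signals of 56.4 and 14.4 in RNAi, against 13529 and 11378 in ZH11. These are bounds of at least 190-fold for EXPB9 and at least 160-fold for EXPB10. RTS, the other gene of the late pollen list, is an anther gene of rice known from the tapetum, and had 75.7 in RNAi and 1603 in ZH11, 21.2-fold lower. Of the late pollen names asked for, MADS62, MADS63, MADS68, PLIM2, RUPO, RMD, GSL5, PRF2 and PRF3 matched no gene. EXPB9 and EXPB10 were under the floor on both stage 9 arrays, so the late signal was seen on 1 of the 4 arrays. In whole spikelets, fewer pollen grains and less of a transcript per grain cannot be told apart.

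Lower probe sets outnumbered higher ones, and the imbalance grew with the size of the change. At 2-fold 677 probe sets were higher in RNAi (2.09% of 32355 above the floor on either array) and 2120 were lower (6.55%). At 4-fold 56 were higher and 921 lower, at 8-fold 11 were higher and 497 lower, and at 16-fold none were higher and 312 lower. The largest fold was at least 15.4 among the higher ones and at least 241 among the lower ones. At stage 9 the counts were closer, with 803 higher (2.48% of 32432) and 632 lower (1.95%) at 2-fold and 21 of each at 16-fold. The lower probe sets made up 75.8% of the stage 12 calls and the higher ones 24.2%. The share of higher calls was 35.5% after scaling to a common median, 33.2% after scaling to a common trimmed mean and 34.0% after quantile normalization. It was 5.07% after scaling to the poly-A spike-ins, an alternative chosen after the data were seen. Among probe sets above the floor on both arrays the median log2 ratio was -0.0049 as deposited, 0.14 after common median, 0.11 after trimmed mean, 0.12 after quantile and -0.46 after poly-A scaling.

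**Figure D2:**
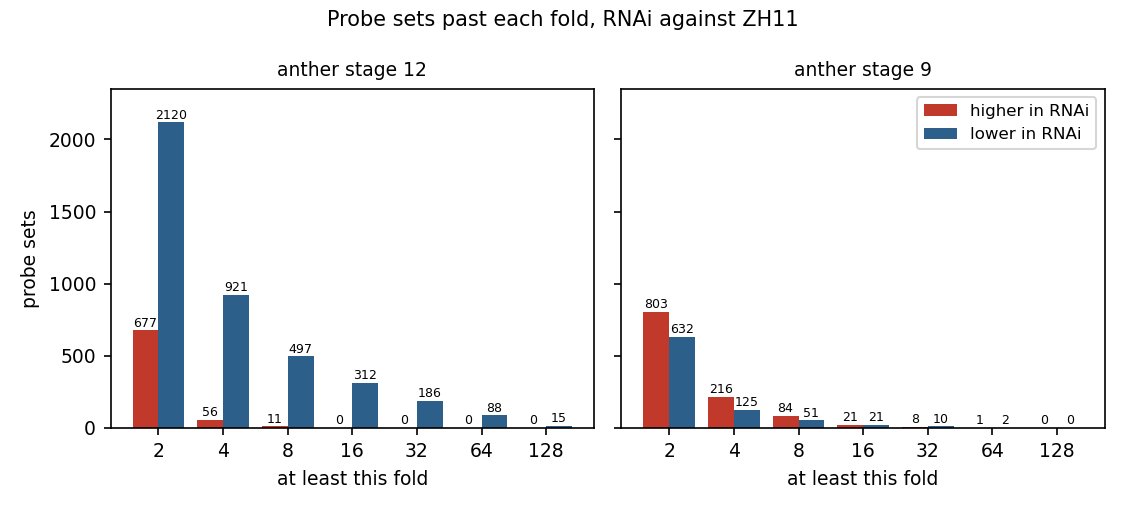
Number of probe sets higher and lower in RNAi than in ZH11 spikelets past each fold, at stage 12 on the left and stage 9 on the right. At stage 12 the bars for lower probe sets run on to 15 past 128-fold, while those for higher probe sets end at 11 past 8-fold.

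Many of the lower probe sets gave no signal above the floor in RNAi. There 894 of the 2120 lower probe sets (42.2%) lay under the floor, while 87 of the 677 higher ones (12.9%) lay under it in ZH11. The median signals of the lower probe sets were 86.9 in RNAi and 628 in ZH11, and those of the higher ones 522 in RNAi and 187 in ZH11. Bright probe sets were among the lower ones: 22 of the 100 brightest probe sets of ZH11 were lower in RNAi, and 0 of the 100 brightest of RNAi were higher. Each 100 was chosen by signal on an array of the pair compared, so these counts describe the sets and are not an independent check. Of the 974 probe sets with a signal above 4544 on either array, 13.8% were lower and 10.2% were lower by at least 16-fold, while 0.821% were higher.

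**Figure D3:**
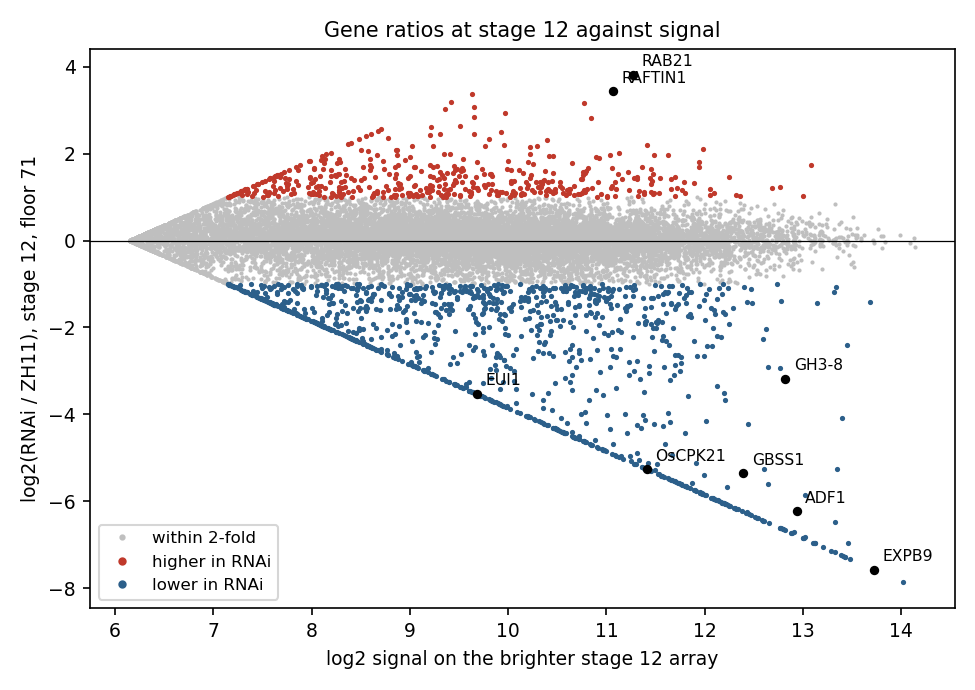
Log2 ratio of RNAi over ZH11 at stage 12 for each gene above the floor, against the log2 signal on the brighter array. The points on the lower slanting edge are genes under the floor in RNAi, EXPB9 and OsCPK21 among them, and the highest labelled genes are RAB21 and RAFTIN1.

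The stage 9 arrays, which took no part in the stage 12 ratios, showed what these probe sets did earlier. Of the lower probe sets 827 (39.0%) were under the floor on both stage 9 arrays, against 121 (17.9%) of the higher ones and 3540 (10.9%) of all 32355. Their stage 9 medians were 91.2 in RNAi and 99.5 in ZH11 for the lower ones, and 395 in RNAi and 282 in ZH11 for the higher ones. Among probe sets under the floor on both stage 9 arrays, 73 had a signal of at least 1136 in RNAi at stage 12, and 0 of these were under the floor in ZH11, with a median there of 1387. In ZH11 306 had such a signal, and 210 of these (68.6%) were under the floor in RNAi, where their median was 41.4. In RNAi 51 of the 306 (16.7%) were at most 2-fold lower. Both sets were chosen by signal on an array of the stage 12 pair, so these shares describe the sets and are not an independent check.

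Calls of the same direction at both stages were a minority. Of the 677 probe sets higher at stage 12, 148 were also higher at stage 9, which is 21.9% of the stage 12 list and 18.4% of the stage 9 list. Of the 2120 lower at stage 12, 75 were also lower at stage 9, 3.54% of the stage 12 list and 11.9% of the stage 9 list. Probe sets under the floor on both stage 9 arrays, 827 of the lower and 121 of the higher ones, could not be called at stage 9. Opposite directions were shared by 35 probe sets higher at stage 12 and lower at stage 9, and by 34 lower at stage 12 and higher at stage 9. Of all probe sets above the floor at stage 12, 2.08% were higher and 1.52% lower at stage 9.

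At 8-fold or more in the same direction at both stages stood 14 probe sets, 3 higher and 11 lower. OsCPK21 was among the lower ones, as was JAZ2 (LOC4342421), a jasmonate-induced repressor, with 33.7 in RNAi and 966 in ZH11 at stage 12. LOC4326386 had 48.1 in RNAi and 4344 in ZH11 at stage 12, and 155 in RNAi and 2118 in ZH11 at stage 9. Its neighbour LOC4326388, the next protein-coding gene in the RefSeq order of assembly ASM3414082v1, had 8.10 in RNAi and 3848 in ZH11 at stage 12, and 10.6 in RNAi and 3102 in ZH11 at stage 9. LOC4350020, by 2 of its 3 probe sets, and LOC4350023, which is 3 genes further, by 1 of its 2, were also lower at both stages. The LOC4350023 probe set had 8.62 in RNAi and 1405 in ZH11 at stage 12, and 11.8 in RNAi and 1361 in ZH11 at stage 9. The brighter probe set of LOC4350023, which stands for the gene, was within 2-fold, with 260.5 in RNAi and 371 in ZH11 at stage 12. LOC4325024 went the other way, with 802 in RNAi and 95.8 in ZH11 at stage 12 and 959 in RNAi and 112 in ZH11 at stage 9. The largest ratio of any higher probe set at stage 12 belonged to one without a gene. It had 1095 in RNAi and 27.0 in ZH11 at stage 12, and 1302 in RNAi and 13.7 in ZH11 at stage 9, at least 15.4-fold and at least 18.3-fold higher.

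Over genes, 456 were higher in RNAi (2.86% of 15970 above the floor) and 1124 were lower (7.04%), and the median log2 ratio of all genes was 0.02. Genes with a name other than a locus number counted 86 higher (3.8%) and 167 lower (7.38%) of 2264. Genes known by a locus number counted 370 higher (2.7%) and 957 lower (6.98%) of 13706. Probe sets without a gene held 151 higher (1.12%) and 841 lower (6.25%) of 13448, so 841 of the 2120 lower probe sets carry no gene annotation. The brightest of these had 35.6 in RNAi and 17137 in ZH11, at least 241-fold lower, and was under the floor on both stage 9 arrays. Other probe sets of the lower genes were lower in 82 of 136 cases and higher in 0, and those of the higher genes were higher in 23 of 45 cases and lower in 0. The remaining 54 and 22 were within 2-fold and did not share the call of their gene. For genes within 2-fold, 68 of 2649 other probe sets were lower and 43 higher.

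Among named genes under the floor in RNAi, the brightest in ZH11 after the beta-expansins was YSL7, of the yellow stripe-like family of metal-chelate transporters. It had 69.4 in RNAi and 8205 in ZH11, a ratio of at least 115-fold. NifU1 is a scaffold protein on which iron-sulphur clusters are built, and had 24.1 in RNAi and 5932 in ZH11, although its other probe set was under the floor on both arrays. ADF6, an actin-depolymerising factor, had 50.3 in RNAi and 4751 in ZH11, and VLN4, an actin-bundling villin, had 29.3 in RNAi and 4091 in ZH11. BGLU38, of the beta-glucosidases, had 41.8 in RNAi and 4141 in ZH11. KAO, ent-kaurenoic acid oxidase of gibberellin synthesis, had 44.8 in RNAi and 4040 in ZH11. Except ADF6 in ZH11, with 82.4, and YSL7, with 116 in RNAi and 131 in ZH11, these 6 genes were under the floor on both stage 9 arrays.

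Of genes measured on both arrays, ADF1 had the lowest ratio among those with a name, with 105 in RNAi and 7845 in ZH11, 74.7-fold lower. ACA1, a calcium-pumping ATPase, was 47.5-fold lower (78.9 in RNAi, 3751 in ZH11), and CIPK5, a kinase activated by calcineurin B-like calcium sensors, was 42.3-fold lower (96.2 in RNAi, 4073 in ZH11). SWEET5, a sugar transporter, had 111 in RNAi and 3860 in ZH11, and the MAP kinase MPK17 had 106 in RNAi and 3255 in ZH11. EUI1, a cytochrome P450 that inactivates gibberellins, had 71.6 in RNAi and 822 in ZH11. Unlike most of this group it was bright at stage 9, with 550.0 in RNAi and 607 in ZH11. CML28, a calmodulin-like protein, was 10.8-fold lower.

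Among genes known by a locus number, LOC4347012 had 39.1 in RNAi and 16584 in ZH11, at least 233-fold lower. LOC4331323, LOC4335467, LOC4342864 and LOC4348583 had 10682 to 11039 in ZH11 and 14.6 to 56.9 in RNAi. All 5 were under the floor on both stage 9 arrays. LOC4339485 (91.0 in RNAi, 11272 in ZH11) and LOC4349048 (116 in RNAi, 10288 in ZH11) were measured on both sides and were 124-fold and 88.7-fold lower. LOC4332418, LOC4326810 and LOC4332101 were 113-fold, 105-fold and 76.3-fold lower, with 72.2 to 73.8 in RNAi.

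The higher genes were led by RAB21, a dehydrin of the abscisic acid and drought response, with 2464 in RNAi and 175 in ZH11, 14.1-fold higher. Its second probe set gave 2000.1 in RNAi and 170 in ZH11. At stage 9 it had 222 in RNAi and 190 in ZH11. RAFTIN1, an anther protein carried on the tapetal bodies that feed the pollen wall, had 2149 in RNAi and 199 in ZH11, 10.8-fold higher. PP2C68 and PP2C30, protein phosphatases that restrain abscisic acid signalling, were 10.3-fold and 4.62-fold higher, with 793 and 2729 in RNAi against 76.7 and 591 in ZH11. The lipid transfer protein nsLTP2 was well above 2-fold (655 in RNAi, 79.9 in ZH11), as were the calmodulin-like CML14 (808 in RNAi, 112 in ZH11) and the aquaporin PIP1-3 (972 in RNAi, 172 in ZH11). CAD7, of the cinnamyl alcohol dehydrogenases of lignin synthesis, had 593 in RNAi and 96.6 in ZH11. RFS was 4.51-fold, the chitinase Cht11 3.98-fold and the metallothionein MT4C 3.66-fold higher.

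Genes under the floor in ZH11 were dimmer. GER2 and GER1, neighbouring loci of germin-like proteins, had 419 and 332 in RNAi against 47.8 and 55.8 in ZH11, at least 5.89-fold and at least 4.67-fold higher. CYCD2-2, a D-type cyclin, had 230.1 in RNAi and 57.8 in ZH11, and DREB1E had 203 in RNAi and 27.1 in ZH11. AMT2-3 and rab25 had ratios under 2-fold after the floor. Of genes known by a locus number, LOC4348123 was 9.10-fold higher at stage 12 (685 in RNAi, 75.3 in ZH11) and far brighter at stage 9, with 7983 in RNAi and 10974 in ZH11. LOC4343628 had the same order of levels, with 1836 in RNAi and 259 in ZH11 at stage 12, against 10321 in RNAi and 13366 in ZH11 at stage 9. LOC4324133 and LOC4336904 were 9.01-fold and 7.64-fold higher. LOC4329309, LOC4327611, LOC9268106 and LOC4339385 had 283 to 409 in RNAi and 35.7 to 64.5 in ZH11.

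**Figure D4:**
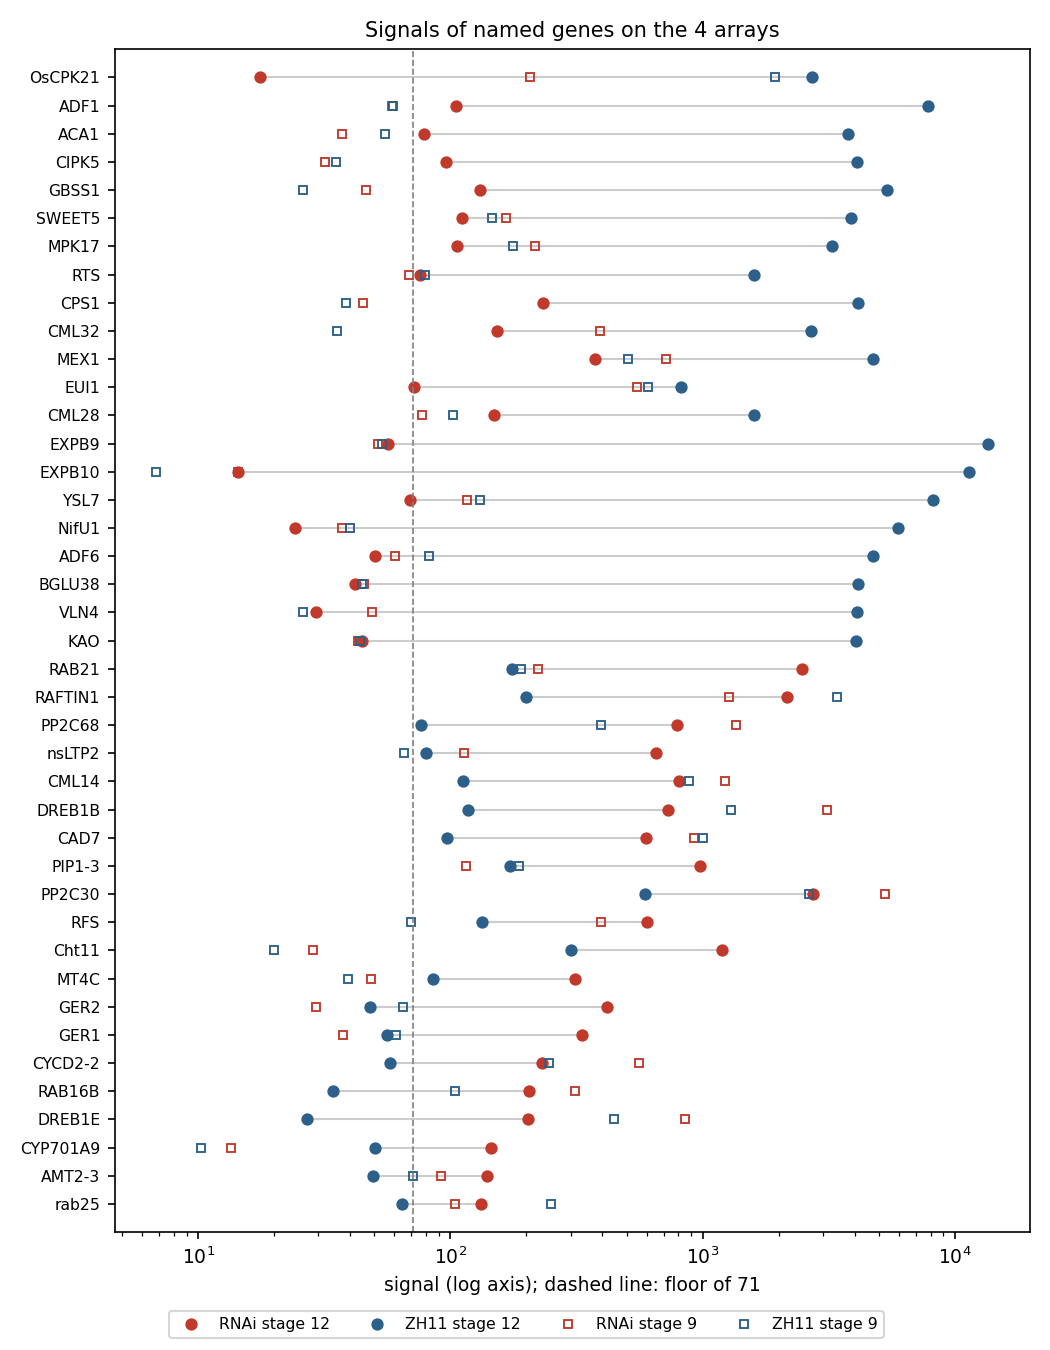
Signal on a log axis of OsCPK21 and 40 other named genes: filled circles are stage 12 and open squares stage 9, red for RNAi and blue for ZH11, with the floor of 71 dashed. In the upper block the blue stage 12 circle stands far right of the other 3 points for most genes, EUI1 and OsCPK21 being exceptions whose ZH11 stage 9 square is also bright. In the lower block the red stage 12 circle is right of the blue one for every gene.

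The list counts are set against 2.86% higher and 7.04% lower among all genes, with no matching for signal. Probe sets at 71 to 142 on the brighter array could hardly be called, since the floor of 71 caps their ratio at 2-fold. Of these 8723, 0 were higher and 1 was lower, which follows from the floor. Such dim members still count in the shares of all probe sets and of all genes, and lower them. In the classes brighter than that, 7.75% to 13.8% of probe sets were lower and 0.821% to 3.45% higher. The share of lower genes was 50.0% for starch, 23.1% for the actin cytoskeleton, 20.8% for metal transport, 16.1% for jasmonate, 15.8% for calcium sensors and their kinases (the target OsCPK21 included) and 13.8% for aquaporins. It was 9.43% for auxin and 5.80% for abscisic acid, near the share of all genes. The share of higher genes was 11.6% for abscisic acid, 11.1% for homeobox factors and 6.90% for cytokinin. Most lists are short, so that 1 gene moves these shares by several points.

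The calcium sensors and their kinases, the family of the targeted gene, held 12 lower and 4 higher genes of 76 above the floor. The 12 include OsCPK21 itself, the target of the construct, whose lower signal is not a finding about the family. Among the 18 genes named CPK, 5 were lower and 0 higher. Besides OsCPK21 these were CPK2 (18.9 in RNAi, 3027 in ZH11), CPK22 (32.5 in RNAi, 2779 in ZH11), CPK29 (24.7 in RNAi, 2510 in ZH11) and CPK6 (26.7 in RNAi, 1655 in ZH11). These 4 kinases were at least 42.6-fold, 39.1-fold, 35.3-fold and 23.3-fold lower, and their stage 9 signals were 22.1 to 73.8 in RNAi and 22.4 to 48.9 in ZH11. The second probe set of CPK6 was under the floor on both arrays. The other 13 CPK genes had log2 ratios from -0.48 to 0.21, with signals up to 4344 in RNAi for CPK13, against 4410 in ZH11. Of the CBL-interacting kinases, CIPK30 was at least 27.9-fold and CIPK20 at least 16.5-fold lower, and CIPK6 was 2.23-fold higher. Of the calmodulin-like genes, CML11 was 6.39-fold lower, while CML31 and CML16 were 3.22-fold and 2.74-fold higher, with 3929 and 4853 in RNAi against 1221 and 1774 in ZH11. At stage 9 CML31 was 8.67-fold and CML16 1.94-fold higher, and CML11 was 1.39-fold lower.

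Starch genes were lower or within 2-fold. Of 12 above the floor 6 were lower and 0 higher, with a median log2 ratio of -1.06, and these counts were the same under common median, trimmed mean and quantile scaling. GBSS1, which makes amylose and is encoded by the waxy gene, had 131 in RNAi and 5383 in ZH11, 41.0-fold lower. Of its 6 probe sets 4 were lower, 1 was within 2-fold and 1 was under the floor on both arrays. MEX1, the maltose exporter of the plastid, had 374 in RNAi and 4740 in ZH11. DPE2, a disproportionating enzyme that uses maltose, had 4449 in RNAi and 10160 in ZH11, and DPE1 was 2.59-fold lower. The alpha-amylase RAmy3D was 2.75-fold lower by 1 of its 2 probe sets and within 2-fold by the other. GWD3, of the glucan water dikinases, was 2.74-fold lower. Sucrose and hexose genes held 4 lower and 0 higher of 21, with the hexokinase HXK5 at 1287 in RNAi and 4857 in ZH11. Of 17 sugar transporters 4 were lower and 1 higher. MST5, a monosaccharide transporter, had 19.0 in RNAi and 1767 in ZH11, SWEET15 had 48.6 in RNAi and 569 in ZH11, and SWEET16 was 2.04-fold higher.

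Wall and cytoskeleton genes held further lower members. Of 10 beta-expansins 4 were lower and 1 was higher, EXPB3, with 3223 in RNAi and 1203 in ZH11. Of 11 alpha-expansins 3 were lower and 0 higher: EXPA32 (54.9 in RNAi, 1745 in ZH11), EXPA26 (38.7 in RNAi, 1619 in ZH11) and EXPA8 (39.5 in RNAi, 795 in ZH11). All 3 were under the floor at stage 9 in both genotypes. Of 26 actin cytoskeleton genes 6 were lower and 1 higher. ADF9 had 10.6 in RNAi and 3790 in ZH11, at least 53.3-fold lower, and the bright actin gene ACT1 had 4915 in RNAi and 13143 in ZH11, 2.67-fold lower. VLN2, another villin, lay at the 2-fold limit with 3406 in RNAi and 6813 in ZH11, and was within it under common median, trimmed mean and quantile scaling. TUB8, a beta-tubulin, had 547 in RNAi and 3390 in ZH11, and RAC6, a GTPase of the ROP family of polar growth, had 1534 in RNAi and 6292 in ZH11.

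Metal transport genes counted 10 lower and 2 higher of 48, and 8 lower and 2 higher under common median, trimmed mean and quantile scaling. Besides YSL7, the lower ones included 5 more yellow stripe-like genes. YSL4 had 24.4 in RNAi and 1241 in ZH11, YSL18 had 51.1 in RNAi and 524 in ZH11, YSL8 had 15.9 in RNAi and 471 in ZH11, and YSL10 and YSL1 had 224 and 177 in ZH11 and were under the floor in RNAi. NRAMP6, a metal ion transporter, was 2.46-fold lower, and the iron transporter IRT1 was 2.18-fold higher. Of 27 potassium and anion channel genes 4 were lower and 3 higher, with HAK26, a potassium transporter, at 61.1 in RNAi and 1439 in ZH11 and HAK16 at 709 in RNAi and 278 in ZH11. Of 29 aquaporins 4 were lower, among them TIP2-1 (30.8 in RNAi, 777 in ZH11), and 1 was higher, the PIP1-3 named above.

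Hormone genes were mixed. Of 69 genes of the abscisic acid list 8 were higher and 4 lower. The list holds the PP2C phosphatase family by symbol, of which a part is known to act in abscisic acid signalling. The higher ones included 7 protein phosphatases and the transcription factor BZIP23, with 1624 in RNAi and 682 in ZH11, and the lower ones were 4 other protein phosphatases. OsPP2C59 had 628 in RNAi and 3113 in ZH11, and PP2C13 had 529 in RNAi and 2470.0 in ZH11. OsPP2C75 was 5.19-fold lower by 1 of its 3 probe sets, while the other 2 were within 2-fold. After poly-A scaling the same list held 5 higher and 8 lower. Of 9 LEA and dehydrin genes RAB21 and RAB16B were higher and RAB16D was lower, with 59.5 in RNAi and 304 in ZH11.

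Of 53 auxin genes 5 were lower and 0 higher, with 3 lower under common median and trimmed mean scaling. GH3-8, which conjugates auxin with amino acids, had 798 in RNAi and 7233 in ZH11, 9.06-fold lower, GH3.5 was 6.24-fold and GH3.2 2.96-fold lower. GH3.5 is on the jasmonate list as well. ARF14 and IAA14, a response factor and a repressor, were 2.16-fold and 2.14-fold lower and fell within 2-fold under common median scaling. Gibberellin genes held 3 lower and 2 higher of 16. CPS1, which starts gibberellin synthesis, had 232 in RNAi and 4120 in ZH11, and GA20OX3, a late enzyme of the pathway, had 1713 in RNAi and 5002 in ZH11. CPS4, 1 of the 2 higher ones, acts in the synthesis of defence diterpenes and not of gibberellins, and had 621 in RNAi and 236 in ZH11. Its neighbour CYP99A3, of the same diterpene cluster, had 540 in RNAi and 264 in ZH11.

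Of 31 jasmonate genes 5 were lower and 1 higher. The lower ones include GH3.5, which is counted in the auxin list too. JAZ9 had 617 in RNAi and 3868 in ZH11, and JAZ11 and COI2 were 2.14-fold and 2.17-fold lower but within 2-fold under common median, trimmed mean and quantile scaling. Of 17 genes of the ethylene list 4 were higher and 0 lower, and 3 of these, DREB1B, DREB1E and DREB1G, are known as transcription factors of the cold and drought response. DREB1B and DREB1G had 729 and 274 in RNAi against 117 and 75.3 in ZH11. EIL1B, of the ethylene-insensitive family, had 368 in RNAi and 114 in ZH11. Of 29 cytokinin genes 2 were higher and 0 lower, RR6 with 2806 in RNAi and 1297 in ZH11 and LOGL9 with 269 in RNAi and 130 in ZH11.

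Among regulators, of 36 homeobox factors 4 were higher and 0 lower, with HOX24 at 2543 in RNAi and 954 in ZH11 and HOX1 at 1481 in RNAi and 578 in ZH11; after poly-A scaling 0 of them were higher. Of 25 MADS-box factors 3 were lower and 0 higher. MADS23 had 39.2 in RNAi and 321 in ZH11, MADS27 had 39.8 in RNAi and 198 in ZH11, and MADS47 had 65.3 in RNAi and 162 in ZH11. The calls of MADS27 and MADS47 were lost at 2 times the floor, that of MADS27 also with the mean over its probe sets and that of MADS47 with a pseudocount. Of 17 MAP kinases 3 were lower, MPK16 and MPK10 beside MPK17, and MPK3 was higher, with 3359 in RNAi and 1445 in ZH11. Of 20 bZIP factors 3 were lower and 1 higher. Of 10 chitinases, enzymes that cleave chitin, 3 were higher and 0 lower, with Cht5 at 2870.1 in RNAi and 1344 in ZH11. Under common median, trimmed mean and quantile scaling 5 chitinases were higher, and after poly-A scaling 1 was.

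Several of the higher calls named from the lists were within 2-fold after poly-A scaling: HOX24, HOX1, CML16, CIPK6, EXPB3, SWEET16, HAK16, IRT1, BZIP23, CPS4, CYP99A3, RR6, LOGL9, MPK3 and Cht5. At 2 times the floor the calls of YSL1, YSL10, OsC6, RAB16B, CYCD2-2, DREB1E, DREB1G, LOGL9, CYP701A9 and LOC4339385 were lost.

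Housekeeping lists held no call in the signals as deposited. The 25 cytosolic ribosomal protein genes had log2 ratios from -0.89 to 0.21, and the translation factors, ubiquitin pathway, chromatin, histone, photosynthesis and vesicle traffic genes held 0 higher and 0 lower. After poly-A scaling 3 ribosomal protein and 3 photosynthesis genes were lower, as was 1 gene each of translation, chromatin and vesicle traffic, and under the other scalings 1 photosynthesis gene was higher. In all, 14 of the 57 lists had no member past 2-fold, 11 had lower ones without higher ones, 11 had higher ones without lower ones and 21 had both. Of the 57 medians 47 turned sign under at least 1 of the 4 other scalings, so list counts and not medians are given here except where a median kept its sign. List counts depend on the scaling too. Of 114 counts, 41 moved by more than 1.5 times, or to or from 0, after poly-A scaling, and 18 under common median scaling. After poly-A scaling calcium sensors and their kinases held 18 lower and 2 higher, jasmonate 11 and 0, the actin cytoskeleton 9 and 0 and starch 8 and 0.

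**Figure D5:**
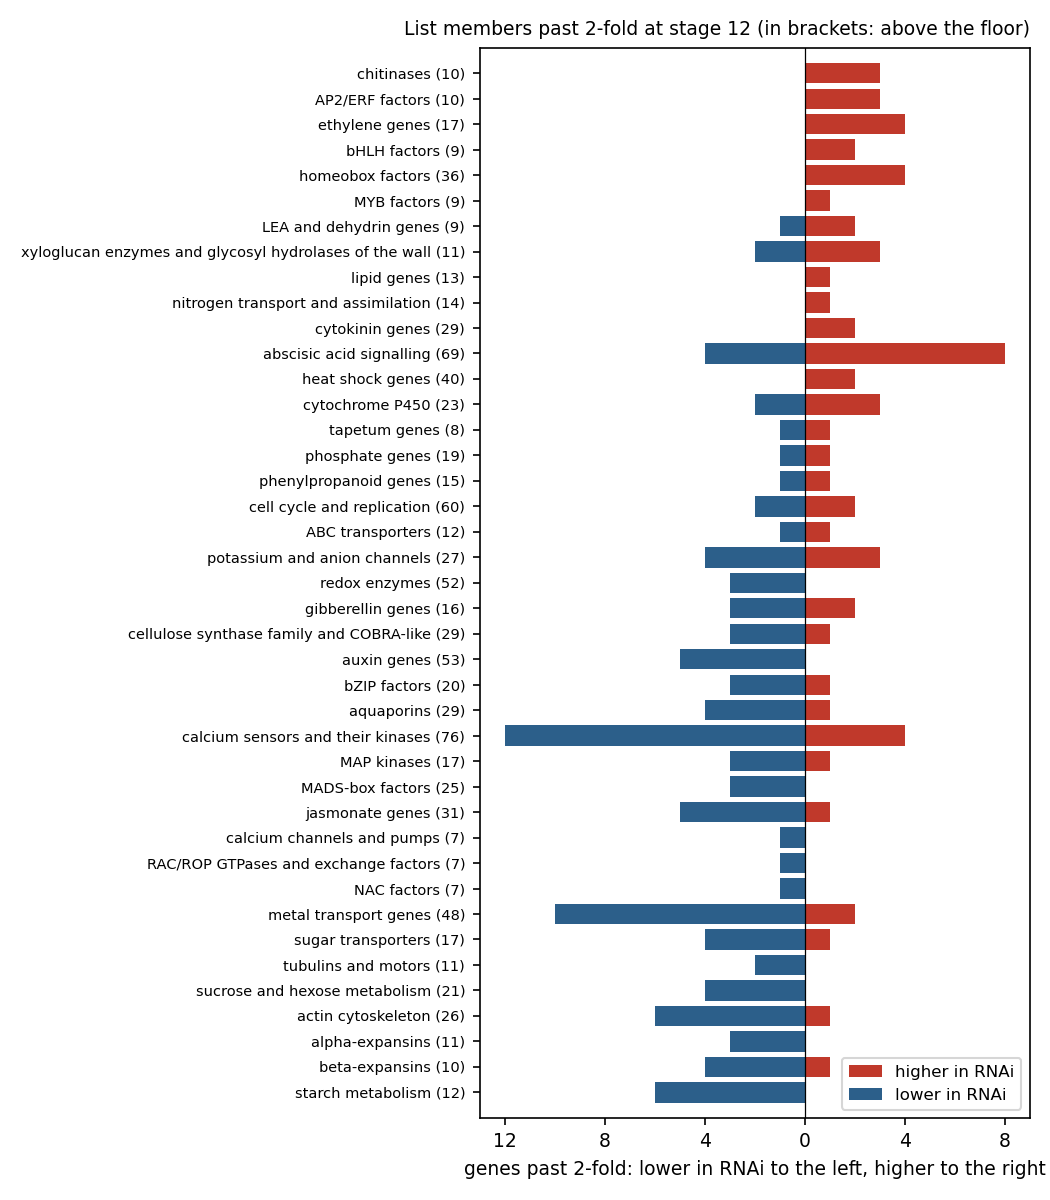
Number of genes past 2-fold at stage 12 in each list with at least 5 genes above the floor and at least 1 call, lower in RNAi to the left and higher to the right. In the signals as deposited, starch metabolism, at the foot, has 6 lower of 12, and the chitinases, at the head, have 3 higher of 10.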

How the data were processed

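Total RNA of rice spikelets was labelled with biotin and hybridised to 4 arrays of the Affymetrix Rice Genome Array, 1 per group, per the labels. The deposited values are intensity signals on a linear scale, 1 per probe set. They were made with MAS5 per the submitters' processing notes, with no version or scaling target and no detection calls in the sources used here. The values were used without further scaling.

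The table held 57381 probe sets. The 187 controls (123 spike-in, housekeeping and other array controls and 64 reporter controls) were left out of counts. The platform annotation gave 1 gene for 22436 of the remaining probe sets, several for 95 and none for 34663. The 17905 genes were all found in RefSeq's table of assembly ASM3414082v1, used for names and gene order, and 2458 of them had a name. For the 3444 genes with several probe sets, values are those of the probe set that was brightest on average (mean log2 over the 4 arrays).

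Signals under 71 were raised to 71 and log2 ratios of RNAi over ZH11 were taken, with a threshold of 2-fold and no test, since each group is 1 array. The text names OsCPK21, then the 12 lowest and 12 highest named genes measured on both arrays with the brighter at 4 times the floor or above, and the 8 brightest with 1 array under the floor on each side. Genes known by a locus number follow the same rule with 5 and 5, probe sets without a gene with 2 and 2, and lists with their members past 2-fold or the 4 largest. A few other list members, the CPK genes and the genes past 8-fold at both stages were named after their values were seen.

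The members, lists and named genes were chosen with earlier results of these data known. Lists were matched by name or symbol pattern; of 51 names asked for, 34 matched 1 gene and 30 were on the array, and 76 pattern matches of another kind of protein were removed by name after results were seen. The code that makes the calls was tested on simulated data with known changes, which says nothing of the spread between plants. Alternatives were 3 other scalings, other floors, a pseudocount of 71, leaving out cross-matching probe sets, the mean over probe sets of a gene and, added after the data were seen, scaling to the poly-A spike-ins. Python 3.11.15, numpy 2.4.6 and pandas 2.3.3 were used.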

Additional observations from a re-analysis of the deposited data

Results flagged for a closer look

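For 7 of the genes named in the text the ratios at the 2 stages went in opposite directions past 2-fold. With 1 array per group these differences between stages were not tested. GH3-8 had a log2 ratio of -3.18 at stage 12 and 1.94 at stage 9, CML32 one of -4.13 at stage 12 and, with ZH11 under the floor, a bound of 2.46 at stage 9, JAZ9 one of -2.65 at stage 12 and 1.54 at stage 9, and JAZ11 one of -1.10 at stage 12 and 3.45 at stage 9. RAFTIN1 had 3.43 at stage 12 and -1.42 at stage 9, LOC4346585 had bounds of 2.41 at stage 12 and -2.61 at stage 9, and the glucanase GLU15 had 1.02 at stage 12 and -2.26 at stage 9. The stage 12 call of GLU15 was lost after poly-A scaling (0.54), and that of JAZ11 under common median, trimmed mean and quantile scaling. CML32 had 154 in RNAi and 2687 in ZH11 at stage 12, against 391.7 in RNAi and 35.4 in ZH11 at stage 9. LOC4346585 had 377 in RNAi and 30.4 in ZH11 at stage 12, against 8.26 in RNAi and 433 in ZH11 at stage 9.

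The 2 bright reporter controls were outside the gene comparison. Their signals of 1318 and 2923 in RNAi and 5406 and 7544 in ZH11 at stage 12 stood far above the remaining reporter controls and were larger in the array titled ZH11.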

How the results depend on the processing

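Counts of higher and lower probe sets and genes stayed within 1.5 times the reported ones under the other scalings of the deposited signals, both other floors, without cross-matching probe sets and with the mean over probe sets of a gene. They moved further in 2 cases. With a pseudocount of 71 in place of the floor 396 probe sets and 291 genes were higher. After scaling to the poly-A spike-ins, chosen after seeing the data, 205 probe sets and 147 genes were higher and 3842 probe sets and 2130 genes were lower. At 16-fold the lower probe sets numbered 303 after common median scaling, 206 at 2 times the floor, 394 at 0.5 times the floor and 333 after poly-A scaling, with at most 2 higher.

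Of the 61 named genes, which include AMT2-3 and rab25 within 2-fold, 54 (2 times the floor) to 61 (common median and 0.5 times the floor) were past 2-fold in their direction, and 0 reversed. NifU1 was lost without cross-matching probe sets. No paired analysis was possible because each group was 1 array, and for the same reason no array could be left out.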

Other observations

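Other lists held few calls: 3 lower of 52 redox enzymes, 3 lower and 1 higher of 29 cellulose synthase family and COBRA-like genes, and 2 lower and 2 higher of 60 cell cycle genes. These shares are near those of all genes. Trx20, a thioredoxin, had 50.7 in RNAi and 1601 in ZH11, at least 22.5-fold lower, while its second probe set had 89.3 in RNAi and 53.9 in ZH11, within 2-fold. CSLC9, of the cellulose synthase-like family, had 273 in RNAi and 1818 in ZH11, CSLD5 had 6.8 in RNAi and 389 in ZH11, and BC1L9, a COBRA-like protein, had 866 in RNAi and 300.2 in ZH11. CDKF-4, a cyclin-dependent kinase, had 1470.5 in RNAi and 4284 in ZH11, and KRP6, of the kinase inhibitors, had 259.9 in RNAi and 82.6 in ZH11. The call of KRP6 was lost at 2 times the floor and with the mean over its probe sets. The transcription factors MYB2 and BHLH148 were 3.22-fold and 2.35-fold higher, and NAC010 was 3.39-fold lower. The stage 12 call of BHLH148 was lost after poly-A scaling. At stage 9 MYB2 was at least 11.7-fold and BHLH148 at least 54-fold higher, and NAC010 was at least 2.59-fold lower. BC1L9 was at least 24.6-fold higher at stage 9, where CSLC9 was within 2-fold and CSLD5 was under the floor on both arrays.

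In the RefSeq order of protein-coding genes, 1118 of 15840 genes above the floor were lower (7.06%), and the next gene was lower as well for 104 of them (9.30%). Of 455 higher genes (2.87%) the next gene was also higher for 19 (4.18%). The lower genes formed 10 runs of at least 3, the longest of 4 genes (LOC4334658, LOC4334663, LOC4334664 and LOC4334665). These are counts without a test, and probe sets of neighbouring paralogues can share sequence.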
